A study of Mus musculus with 6 samples.

Results

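Interferon-stimulated genes were examined in 4T1 mammary tumors of mice treated with TKI258 or with water. The list held 45 genes: 41 that interferons induce and the 4 genes of the interferon receptors Ifnar1, Ifnar2, Ifngr1 and Ifngr2. A gene was measured where a probe set named it alone, and of several such probe sets the one with the largest average signal over all arrays was taken. This gave 38 of the 45 genes, out of 19937 genes measured in all. Isg15, Gbp2, Igtp, Irgm2, Ifi47 and Tgtp1 were left out because their probe sets also name another gene, and Ifi44 was not analysed here. No filter on low signal was applied, so all 38 entered the test.

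The treated tumors were 3 from mice given TKI258 (dovitinib, an inhibitor of receptor tyrosine kinases such as the FGF, VEGF and PDGF receptors) by mouth at 40 mg/kg, and the controls were 3 from mice given water. In both groups 750000 cells of 4T1, a mouse mammary carcinoma line, had been injected into the fourth mammary gland of Balb/C mice, and daily treatment began 7 days later and lasted 14 days. Each tumor was hybridised to 1 array, and values are log2 signals. Whole tumors of a single transplanted line were profiled, so tumor cells, stroma and leukocytes share each signal, and fewer cells of a type cannot be told apart from less RNA per cell.

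Interferons are secreted proteins that put cells into an antiviral and antigen-presenting state. Type I interferons (alpha and beta) act through IFNAR1 and IFNAR2, and interferon gamma, made mainly by T and NK cells, acts through IFNGR1 and IFNGR2. JAK kinases on these receptors activate STAT proteins. A complex that holds STAT2 and IRF9 binds the interferon-stimulated response element (ISRE), and the gamma-activated site (GAS) is the element of the interferon gamma response. Genes of the OAS, MX and IFIT families respond strongly to type I interferons, whereas Irf1 and the GTPases of the IRG and GBP families respond strongly to interferon gamma.

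Stretches of 180 bases before the start of 5 members whose differences are given here carry these elements. They are RefSeq sequences of build GRCm38.p6, written 5′ to 3′ on the strand of the gene, and capitals mark every match to the ISRE letters GAAANNGAAA on either strand or to the GAS letters TTCNNNGAA, which read the same on both strands.
Irf1 (chr11:53769834-53770013, plus strand): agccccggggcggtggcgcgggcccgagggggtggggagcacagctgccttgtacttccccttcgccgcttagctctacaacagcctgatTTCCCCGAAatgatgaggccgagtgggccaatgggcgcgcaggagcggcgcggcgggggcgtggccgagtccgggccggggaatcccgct
Irgm1 (chr11:48871421-48871600, minus strand): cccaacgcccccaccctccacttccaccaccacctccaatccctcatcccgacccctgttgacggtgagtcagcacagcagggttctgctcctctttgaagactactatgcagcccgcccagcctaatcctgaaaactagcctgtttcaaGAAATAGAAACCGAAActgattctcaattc
Oas1a (chr5:120907526-120907705, minus strand): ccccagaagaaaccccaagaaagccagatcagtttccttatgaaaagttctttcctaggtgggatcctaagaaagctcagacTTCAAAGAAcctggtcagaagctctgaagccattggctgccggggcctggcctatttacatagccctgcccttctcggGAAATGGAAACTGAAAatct
Ifit3 (chr19:34583349-34583528, plus strand): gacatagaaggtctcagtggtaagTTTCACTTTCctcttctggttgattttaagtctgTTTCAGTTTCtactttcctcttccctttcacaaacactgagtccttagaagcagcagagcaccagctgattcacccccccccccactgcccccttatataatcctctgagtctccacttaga
Trim30a (chr7:104465194-104465373, minus strand): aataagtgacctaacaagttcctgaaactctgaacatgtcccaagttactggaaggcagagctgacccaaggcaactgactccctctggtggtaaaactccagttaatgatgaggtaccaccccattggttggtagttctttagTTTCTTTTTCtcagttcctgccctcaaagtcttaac
Counted from the start of the gene, the GAS match of Irf1 spans bases -90 to -82. Irgm1 has overlapping ISRE matches from -30 and from -24, and Oas1a from -20 and from -14, with a GAS match from -98 to -90 besides. Ifit3 has ISRE matches from -156 and from -122, and Trim30a has one from -36 to -27. Irf1 and Trim30a have 2 windows each in the RefSeq table, and the one shown is the first that holds a match.

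Of the 45 genes, 36 had a promoter window of 250 bases before to 50 bases after the start. An ISRE match lay in the windows of 18 of these 36 genes (50%), against 1079 of 27025 genes with a window (3.99%). A GAS match lay in the windows of 12 (33.3%), against 2582 of all genes (9.55%). Both elements were found in 6 members (16.7%), Oas1a, Bst2, Tgtp1, Igtp, Irgm2 and Eif2ak2, against 0.614% of all genes. In Bst2 the GAS match overlaps an ISRE match. These genes were chosen for their known response to interferon, so the shares describe the list and say nothing about the treatment.

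The 6 tumors were not alike in their immune content. The B cell receptor gene Cd79b had signals of 5.55, 5.69 and 9.76 in TKI258 replicates 1, 2 and 3, against 7.68, 5.57 and 5.65 in water replicates 1, 2 and 3. TKI258 replicate 3 stood far above the others and water replicate 1 came next. The same was true of the mean signal of 10 measured B cell markers of 11 listed, at 5.04, 5.11 and 8.92 in TKI258 tumors, against 6.93, 4.90 and 5.06 in water tumors. The 14 T and NK cell markers, all measured, averaged 5.25, 5.28 and 7.18 in TKI258 tumors, against 6.004, 5.41 and 5.64 in water tumors. Markers of lymph node vessels and stroma (4 measured of 6) averaged 6.71, 7.07 and 9.77 in TKI258 tumors, against 8.63, 6.01 and 6.46 in water tumors. Adipocyte markers, 8 of 8 measured, averaged 7.34, 8.07 and 8.89 in TKI258 tumors, against 7.28, 6.12 and 6.72 in water tumors, and were likewise highest in TKI258 replicate 3. Markers of macrophages, 10 of 10 measured, did not follow this order: they averaged 9.69, 9.86 and 9.70 in TKI258 tumors, against 9.78, 10.36 and 9.87 in water tumors. Keratinocyte markers, 9 of 9 measured, were high in other tumors, averaging 7.80 and 7.52 in water replicates 2 and 3. They averaged 5.37 in water replicate 1 and between 5.28 and 5.51 in the TKI258 tumors. Whether TKI258 replicate 3 or any of the water tumors holds tissue next to the tumor was not tested. The epithelial keratin genes Krt8 and Krt18, which 4T1 cells express, had signals above 11 on every array. All 7 epithelial markers together averaged 9.14, 8.94 and 9.24 in TKI258 tumors, against 9.12, 8.48 and 8.80 in water tumors. Of these 7, Krt8 and Krt18 differed negatively and the other 5 positively, and the signal of the tight junction gene Cldn4 ran from 8.27 in water replicate 2 to 10.12 in TKI258 replicate 1. No array median over all probe sets left the range 6.38 to 6.44. Because TKI258 replicate 3 stood apart, the counts of members and of the other interferon lists are given with and without it.

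With all 6 tumors, interferon-stimulated genes showed no difference between the groups that passed the test. None of the 38 genes passed limma's test at an adjusted p of 0.05, and 0 of 38 had an unadjusted p under 0.05, higher or lower. Over all probe sets 0% passed after adjustment. At the unadjusted threshold, 3.79% of all genes lay higher in TKI258 tumors and 3.35% lower. The limma adjusted p of the members ran from 0.661 to 0.999. Their differences, TKI258 minus water, ran from -0.37 to 0.26 with a median of 0.003, beside a median of 0.023 over all genes. Of the members 20 had a positive and 18 a negative difference, beside 56.6% and 43.4% of all genes. No member had TKI258 tumors that all lay above or all below the water tumors, against 8.66% and 6.49% of all genes.

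The members varied widely between tumors of one group. The SD of a member over the 3 TKI258 tumors had a median of 0.51, against 0.22 over the 3 water tumors, and the medians over all genes were 0.13 and 0.12. TKI258 replicate 3 was the highest of the 6 tumors for 30 of 38 members (78.9%), beside 26.3% of all genes. The 8 exceptions were the 4 receptors, Oas1a, Oas2, Oasl1 and Isg20. TKI258 replicate 2 was the lowest tumor for 23 members (60.5%), beside 11.4% of all genes. Thus the highest and the lowest values of most members came from the same treatment group. Among the water tumors, replicate 3 was the highest for 24 members (63.2%), beside 35.0% of all genes. These are descriptions of single tumors, with no test.

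**Figure D1:**
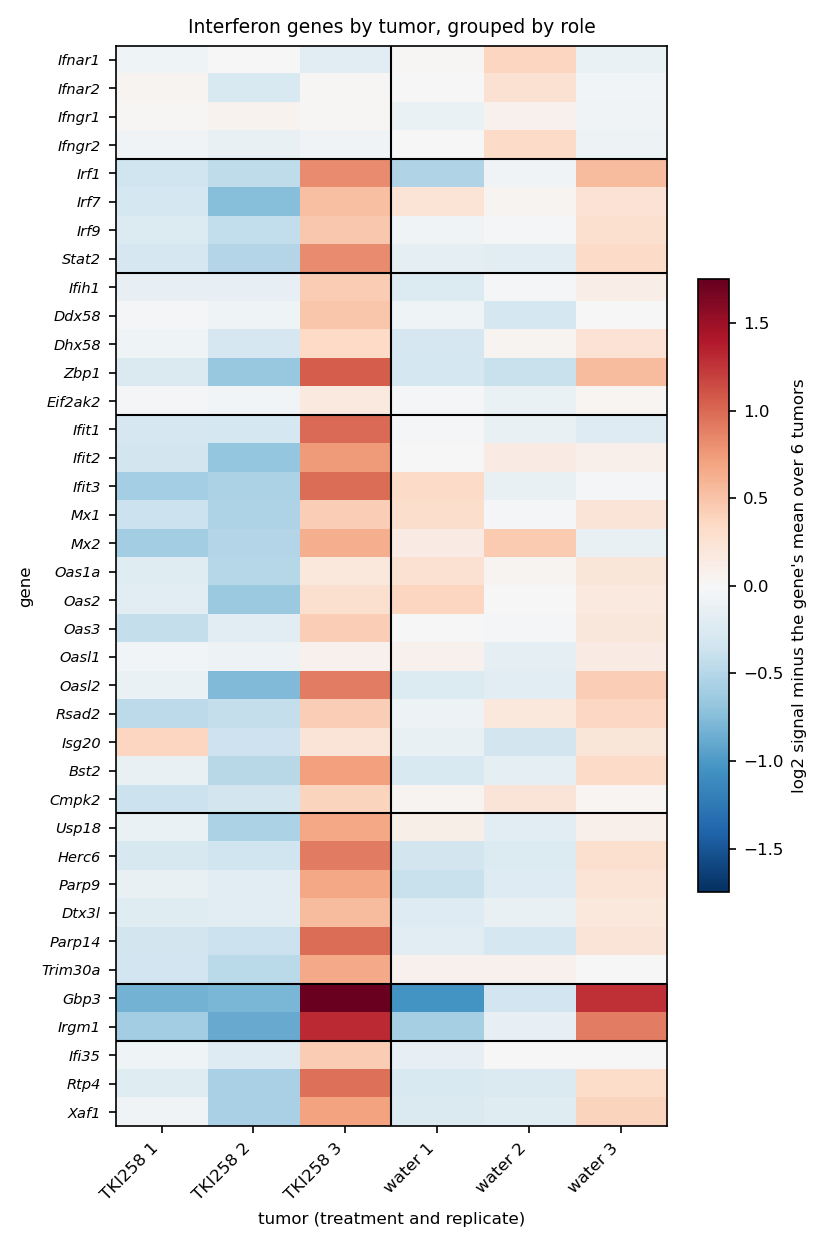
Log2 signal of each of the 38 measured genes (rows, grouped by role between black lines) in each tumor (columns, 3 TKI258 tumors left of 3 water tumors), as the difference from the gene's mean over the 6 tumors. The column of TKI258 replicate 3 is red for 30 genes that are highest there, and the first 4 rows, the receptors, are not highest there.

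None of the 4 receptor genes passed the test. Their median SD was 0.063 over the TKI258 tumors, against 0.197 over the water tumors. The interferon gamma receptor gene Ifngr1 had signals of 9.14, 9.18 and 9.14 in TKI258 replicates 1, 2 and 3, against 9.01, 9.20 and 9.06 in water replicates 1, 2 and 3. Its partner chain Ifngr2 had 9.88, 9.81 and 9.88 in TKI258 tumors, against 9.96, 10.29 and 9.86 in water tumors. The highest value of both was in water replicate 2, and the groups overlapped. Ifnar1, a chain of the type I receptor, had 9.01, 9.07 and 8.90 in TKI258 tumors, against 9.11, 9.45 and 8.96 in water tumors. Ifnar2, the other chain, had 9.25, 8.94 and 9.23 in TKI258 tumors, against 9.20, 9.47 and 9.16 in water tumors. Again water replicate 2 was highest, and the groups overlapped. The differences ± SE were 0.06 ± 0.09 for Ifngr1, -0.18 ± 0.13 for Ifngr2, -0.18 ± 0.14 for Ifnar1 and -0.14 ± 0.13 for Ifnar2, with limma adjusted p between 0.712 and 0.839. Unlike most of the induced genes, none of the 4 receptors was highest in TKI258 replicate 3. Ifnar2, Ifnar1 and Ifngr2 lie close together on mouse chromosome 16, with 1 protein-coding gene between the first pair and 0 between the second.

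None of the 4 transcription factor genes passed the test, and all 4 were highest in TKI258 replicate 3. Irf7, the factor that amplifies type I interferon production, had signals of 7.82, 7.38 and 8.65 in TKI258 replicates 1, 2 and 3, against 8.36, 8.17 and 8.38 in water replicates 1, 2 and 3. TKI258 replicates 1 and 2 lay below every water tumor and replicate 3 above them all. Irf9, the DNA-binding subunit of the complex that recognises the ISRE, had 8.08, 7.88 and 8.79 in TKI258 tumors, against 8.26, 8.27 and 8.60 in water tumors. The order of TKI258 tumors was the same as for Irf7. Irf1, a factor induced by interferon gamma, had 9.60, 9.50 and 10.78 in TKI258 tumors, against 9.42, 9.88 and 10.50 in water tumors. Here water replicate 3 came next to TKI258 replicate 3, and the other 4 tumors were lower than both. Irf1 has 2 probe sets that name it alone, and these values are from the one with the higher mean. With the probe sets averaged, the Irf1 difference was 0.19 (limma adjusted p = 0.816). The differences over all tumors were -0.36 ± 0.30 for Irf7, -0.13 ± 0.24 for Irf9, 0.02 ± 0.41 for Irf1 and 0.01 ± 0.35 for Stat2, the STAT partner of IRF9, with limma adjusted p from 0.752 to 0.994.

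None of the 5 sensors of foreign nucleic acid passed the test. Ddx58, which encodes the RNA sensor RIG-I, had signals of 9.06, 9.003 and 9.56 in TKI258 replicates 1, 2 and 3, against 9.01, 8.77 and 9.07 in water replicates 1, 2 and 3. Ifih1, which encodes the RNA sensor MDA5, had 8.04, 8.04 and 8.64 in TKI258 tumors, against 7.95, 8.15 and 8.31 in water tumors. In both genes only TKI258 replicate 3 stood clear of the other tumors. Dhx58, which encodes the related regulator LGP2, had 6.97, 6.75 and 7.39 in TKI258 tumors, against 6.75, 7.10 and 7.30 in water tumors. Eif2ak2, which encodes the RNA-activated kinase PKR, had 8.97, 8.96 and 9.16 in TKI258 tumors, against 8.98, 8.89 and 9.03 in water tumors. Its range over all 6 tumors, 0.28, was among the narrow ones. Zbp1, which encodes a sensor of Z-form nucleic acid that can trigger cell death, had 7.86, 7.44 and 9.17 in TKI258 tumors, against 7.80, 7.72 and 8.67 in water tumors. Like Irf1 it was high in TKI258 replicate 3 and water replicate 3. The 5 differences ran from -0.01 to 0.25, the last being Ddx58 (0.25 ± 0.17, limma adjusted p = 0.702).

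None of the 14 antiviral effectors passed the test, but the smallest p-values of the list were among them. Oas1a, one of the synthetases that make the oligoadenylate activator of RNase L, had signals of 7.35, 7.07 and 7.74 in TKI258 replicates 1, 2 and 3, against 7.82, 7.60 and 7.77 in water replicates 1, 2 and 3. Oas2, a synthetase of the same family, had 6.54, 6.08 and 7.01 in TKI258 tumors, against 7.10, 6.73 and 6.89 in water tumors. For both genes water replicate 1 was the highest tumor, and TKI258 replicate 3 lay within the water range. Mx1, which encodes a dynamin-like antiviral GTPase, had 5.38, 5.22 and 6.18 in TKI258 tumors, against 6.06, 5.72 and 5.98 in water tumors. Cmpk2, a mitochondrial nucleotide kinase gene, had 5.55, 5.60 and 6.32 in TKI258 tumors, against 5.96, 6.15 and 5.96 in water tumors. Both had TKI258 replicate 3 above all water tumors and the other TKI258 tumors below them. The differences were -0.35 ± 0.18 for Oas1a (limma adjusted p = 0.661), -0.37 ± 0.24 for Oas2 (adjusted p = 0.694), -0.33 ± 0.25 for Mx1 (adjusted p = 0.731) and -0.20 ± 0.21 for Cmpk2 (adjusted p = 0.795). Of the 14 effectors 10 had a negative difference and 4 a positive one, beside 43.4% and 56.6% of all genes, with a median of -0.14. The remaining 10 differed by -0.32 (Mx2), -0.30 (Rsad2, which encodes viperin), -0.16 (Ifit2), -0.12 (Oas3), -0.11 (Ifit3), -0.04 (Oasl1), 0.00 (Oasl2), 0.06 (Bst2, which encodes the virus-retaining protein tetherin), 0.16 (Isg20, an exonuclease gene) and 0.26 (Ifit1). Mx1, Mx2 and Cmpk2 had signals below the median of all probe sets on every array. Oas1a, Ifit3, Gbp3 and Trim30a belong to families with close copies, so their probe sets may also read a relative.

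Genes of the ISG15 and ubiquitin branch and of ADP-ribosylation were also highest in TKI258 replicate 3 throughout, and none of the 6 passed the test. Usp18, which encodes the protease that removes ISG15 and restrains type I receptor signalling, had signals of 7.17, 6.73 and 7.96 in TKI258 replicates 1, 2 and 3, against 7.39, 7.08 and 7.37 in water replicates 1, 2 and 3. Herc6, which encodes the main ISG15 ligase of the mouse, had 8.81, 8.75 and 10.00 in TKI258 tumors, against 8.77, 8.85 and 9.38 in water tumors. Both were highest in TKI258 replicate 3, and their groups overlapped. Parp9, which encodes a macrodomain protein, had 8.99, 8.93 and 9.80 in TKI258 tumors, against 8.73, 8.89 and 9.36 in water tumors. Dtx3l, the ubiquitin ligase gene whose product pairs with PARP9, had 8.37, 8.39 and 9.12 in TKI258 tumors, against 8.35, 8.45 and 8.76 in water tumors. Parp9, Dtx3l and Parp14 are adjacent protein-coding genes on chromosome 16, and all 3 were highest in TKI258 replicate 3 and next highest in water replicate 3. Trim30a, which encodes a tripartite motif protein, had 8.89, 8.75 and 9.89 in TKI258 tumors, against 9.31, 9.31 and 9.23 in water tumors. Its water tumors were nearly equal (SD 0.05), with TKI258 replicates 1 and 2 below and replicate 3 above them. The 6 differences ran from -0.11 for Trim30a to 0.25 for Parp9, and the limma adjusted p was at least 0.799.

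The GTPases measured, Irgm1 and Gbp3, had wider ranges over the 6 tumors than any other member, and neither passed the test. Irgm1, which encodes an immunity-related GTPase of autophagy and intracellular defence, had signals of 8.53, 8.25 and 10.43 in TKI258 replicates 1, 2 and 3, against 8.56, 8.99 and 10.03 in water replicates 1, 2 and 3. Gbp3, which encodes a guanylate-binding protein, had 8.15, 8.18 and 10.71 in TKI258 tumors, against 7.94, 8.65 and 10.26 in water tumors. In each group replicate 3 was far above the other tumors, by 2.04 (Irgm1) and 2.54 (Gbp3) over the mean of the other TKI258 tumors and by 1.25 and 1.96 over the mean of the other water tumors. The differences between groups were -0.12 ± 0.63 for Irgm1 and 0.06 ± 0.85 for Gbp3, with limma adjusted p of 0.965 and 0.986. Water replicate 3 had these high values with a B cell marker mean of 5.06, near the lowest of the 6 tumors, and water replicate 1, whose B cell markers were the second highest, had the lowest Gbp3 signal. The mean of the macrophage markers was 9.70 in TKI258 replicate 3 and 9.87 in water replicate 3. The part of these cell types in the GTPase signals was not tested. The same tumors were high in the non-member genes Cxcl9, which encodes a T cell chemokine (6.37, 7.01 and 10.36 in TKI258 tumors, against 7.41, 8.32 and 10.11 in water tumors), and Iigp1, which encodes a further IRG GTPase (6.44, 6.57 and 10.14 in TKI258 tumors, against 7.26, 8.46 and 9.61 in water tumors). Cxcl9 and Iigp1 were chosen after their values were seen. Of the 3 remaining members, Rtp4, a gene for a receptor transporter protein, had 8.93, 8.58 and 10.10 in TKI258 tumors, against 8.88, 8.89 and 9.47 in water tumors. Xaf1, which encodes a partner of the apoptosis inhibitor XIAP, had 7.68, 7.16 and 8.44 in TKI258 tumors, against 7.49, 7.52 and 8.13 in water tumors. Ifi35 had 8.20, 8.05 and 8.72 in TKI258 tumors, against 8.14, 8.28 and 8.29 in water tumors. All 3 were highest in TKI258 replicate 3 and their groups overlapped (differences 0.13 ± 0.39, 0.05 ± 0.34 and 0.09 ± 0.18, limma adjusted p at least 0.891).

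**Figure D2:**
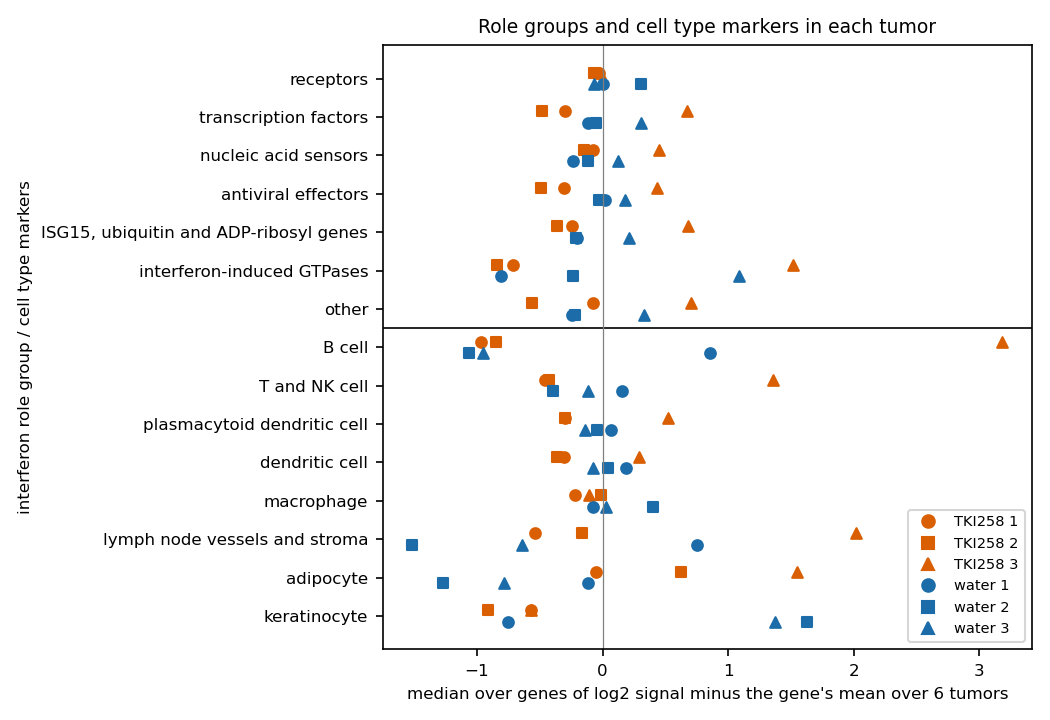
Median over the measured genes of each list (rows) of the log2 signal minus the gene's mean over 6 tumors (horizontal axis), 1 point per tumor, with TKI258 tumors in orange above water tumors in blue and the replicate number as the shape. The 2 GTPases reach 1.52 in TKI258 replicate 3 and 1.08 in water replicate 3, whereas the B cell markers reach 3.18 in TKI258 replicate 3 and stand at -0.95 in water replicate 3.

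**Figure D3:**
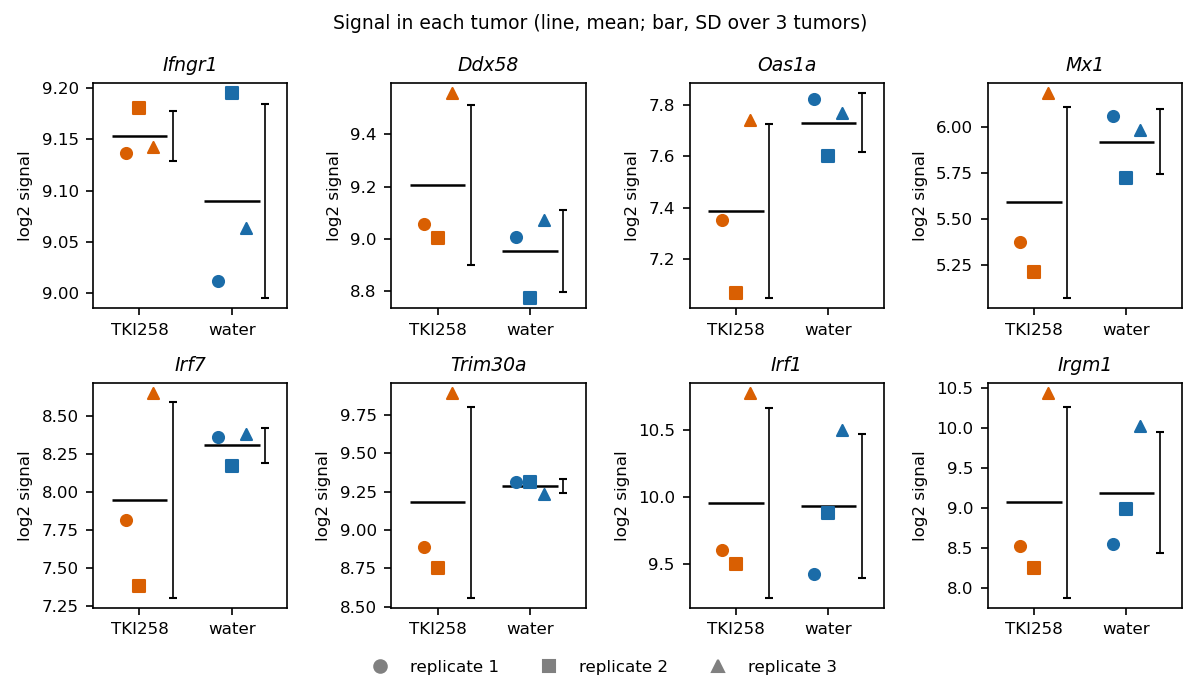
Log2 signal of 8 genes in each tumor, with TKI258 tumors in orange left of water tumors in blue, the mean as a line and the SD over 3 tumors as a bar; each panel has its own vertical axis, which does not start at 0. In Mx1, Irf7 and Trim30a the triangle of TKI258 replicate 3 lies above all water tumors and the other TKI258 tumors lie below them, while in Irf1 and Irgm1 the triangles of both groups are high.

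Without TKI258 replicate 3, the remaining pair of TKI258 tumors had lower signals than water tumors in most members, but no member passed the test. Of 38 members 35 had a negative difference (92.1%), beside 41.9% of all genes, and 3 a positive one, beside 58.1%. The median difference was -0.33, beside 0.03 over all genes, and ran from -0.80 to 0.09. Again 0 of 38 passed limma's adjusted test (0% of all probe sets), with adjusted p from 0.544 to 0.998. An unadjusted limma p under 0.05 with a negative difference was found for 12 members (31.6%), beside 3.38% of all genes, and for 0 members in the positive direction, beside 3.44%. Both TKI258 tumors lay below every water tumor for 16 members (42.1%), beside 10.6% of all genes, and above every water tumor for 0, beside 15.8%. TKI258 replicate 3 was the highest tumor for 78.9% of the members, beside 26.3% of all genes. Leaving it out lowers the treated mean of every gene that is highest there. The gaps between the members and all genes therefore follow in part from which array was left out. Most members were high or low in the same tumors, so their counts are not counts of independent observations. In 14 of the 16 members (36.8% of the 38, beside 2.42% of all genes) TKI258 replicate 3 was at the same time the highest of all 6 tumors, with treated tumors on both sides of the water tumors.

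These genes came mainly from the antiviral effectors and the transcription factors. Of the 14 effectors, 9 had a negative difference with an unadjusted limma p under 0.05, beside 3.38% of all genes. They were Mx1 (-0.62 ± 0.13), Mx2 (-0.72 ± 0.18), Ifit2 (-0.58 ± 0.13), Ifit3 (-0.63 ± 0.15), Oas1a (-0.52 ± 0.13), Oas2 (-0.60 ± 0.18), Oas3 (-0.37 ± 0.12), Rsad2 (-0.59 ± 0.15) and Cmpk2 (-0.45 ± 0.10). Of these 9, Mx1, Mx2 and Cmpk2 lay below the median of all probe sets on every array. Ifit3 lay below it on 5 arrays, Oas3 on 4, Rsad2 on 2 and Oas2 on 1. With a filter on low values, the count of members with such a p and a negative difference fell from 12 to 7. The share of all genes under that filter is not given here. Ifit2 and Ifit3 encode proteins that bind viral RNA or its translation machinery. Rsad2 and Cmpk2 are adjacent on chromosome 12, as are Oas2 and Oas3 on chromosome 5 and Ifit2 and Ifit3 on chromosome 19. Among the transcription factors Irf7 differed by -0.71 ± 0.16 and Irf9 by -0.40 ± 0.14, and Stat2 (-0.40 ± 0.19) had non-overlapping tumors without reaching that p. Trim30a (-0.46 ± 0.09) had the smallest unadjusted limma p of all members, 0.00298, with an adjusted p of 0.544. Irgm1 had the largest difference, -0.80 ± 0.42 and its unadjusted limma p was 0.107. No sensor and no receptor had an unadjusted p under 0.05: their medians were -0.10 (5 sensors) and -0.16 (4 receptors), and Ddx58, Isg20 and Ifngr1 were the 3 members with a positive difference (0.08, 0.09 and 0.07). Of all genes, 41.9% had a negative and 58.1% a positive difference without TKI258 replicate 3. In the same comparison the T and NK cell markers had a median difference of -0.33 with 13 of 14 negative, the plasmacytoid dendritic cell markers -0.36 with 5 of 5 negative, the dendritic cell markers -0.37 with 6 of 7 negative, and the macrophage markers -0.22 with 10 of 10 negative. The median was -0.54 for endothelial markers (7 of 7 negative), -0.58 for neutrophil markers (9 of 10), -0.62 for B cell markers (8 of 10) and -1.29 for keratinocyte markers (9 of 9). Among the water tumors, only replicate 1 had a B cell marker mean above both TKI258 tumors. Only water replicates 2 and 3 had keratinocyte marker means far above both. The median was positive for adipocyte markers (0.93, with 8 of 8 positive), fibroblast markers (0.30, with 5 of 6), epithelial markers (0.20, with 4 of 7) and lymph node vessel markers (0.03, with 2 of 4). Their part in the result was not tested.

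**Figure D4:**
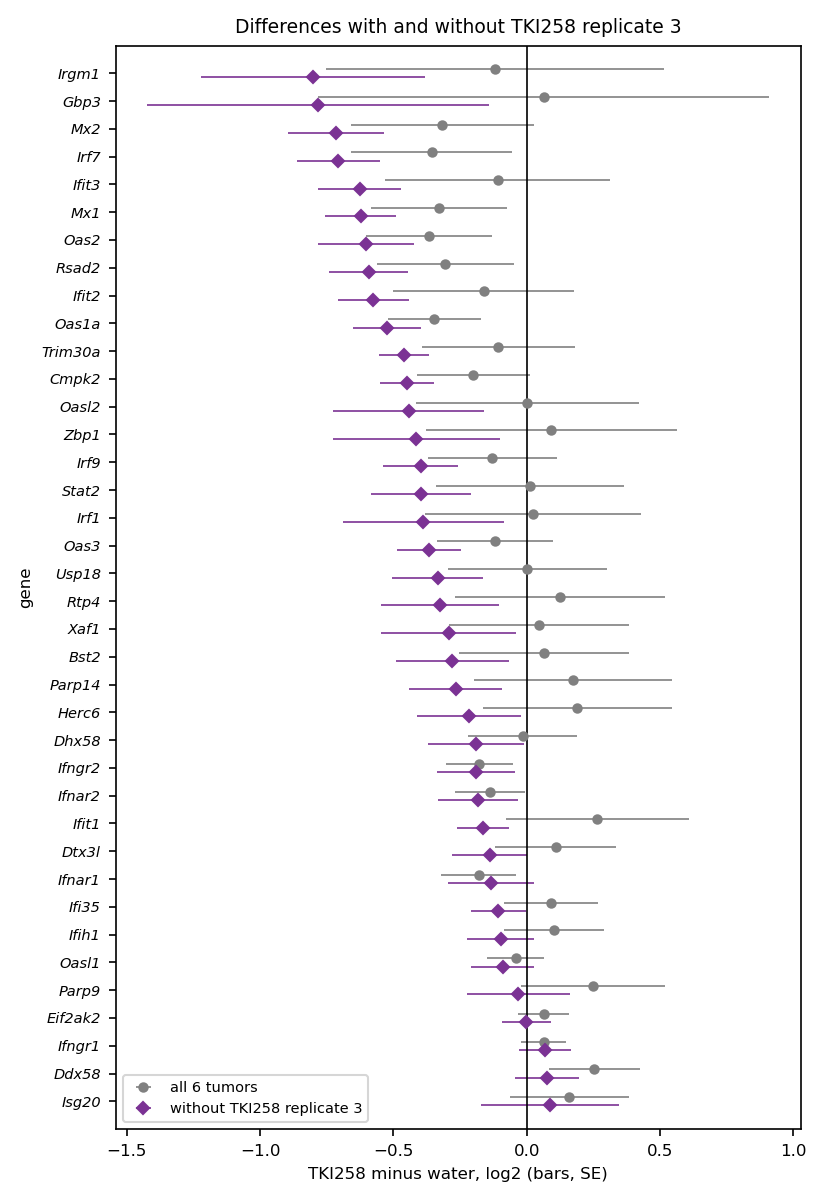
TKI258 minus water difference in log2 signal of each of the 38 genes, with its SE, over all 6 tumors (grey circles) and without TKI258 replicate 3 (purple diamonds), ordered by the second. Without that tumor 35 of 38 genes lie left of 0, against 18 with all tumors, and the bars become shorter for most induced genes.

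**Figure D5:**
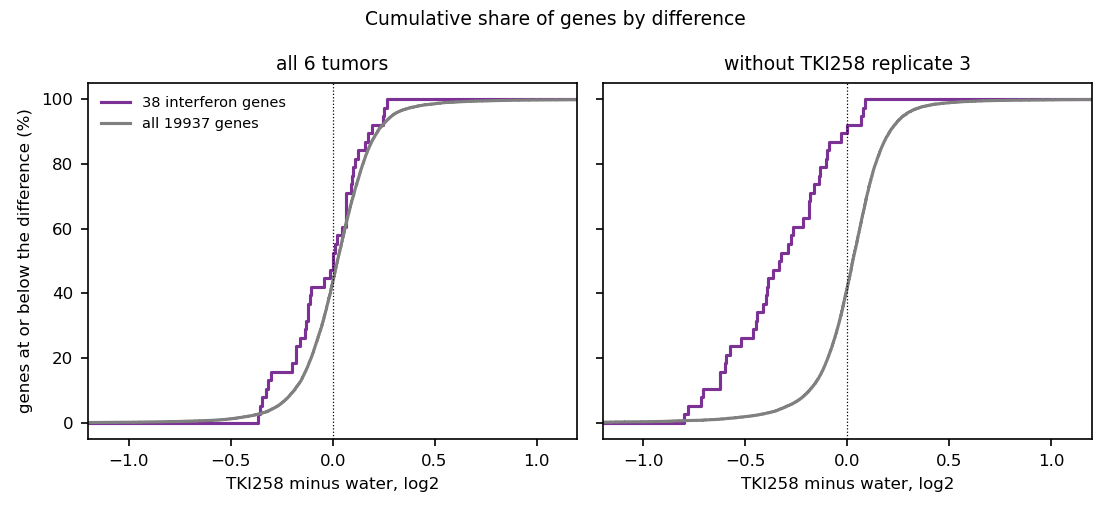
Cumulative share of genes (vertical axis, percent) at or below each TKI258 minus water difference (horizontal axis, log2), for the 38 interferon genes in purple and all 19937 genes in grey. With all 6 tumors the medians are 0.003 and 0.023; without TKI258 replicate 3 they are -0.33 and 0.03.

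Measured induced genes with and without an ISRE or GAS match in the promoter window were set side by side, with no test. Without TKI258 replicate 3 the 13 measured induced genes with an ISRE match had a median difference of -0.40, and the 12 without one -0.34. The ranges were -0.80 to 0.08 and -0.71 to 0.09 and overlapped. Both TKI258 tumors lay below all water tumors for 8 of those 13 and for 4 of those 12, beside 10.6% of all genes. Irf7 and Ifit2 were among the genes with large negative differences and no ISRE match, and Ddx58, with an ISRE match, had a positive one. The 7 genes with a GAS match had a median of -0.28 and the 18 without one -0.40, and both TKI258 tumors lay below all water tumors for 2 of the 7 and 10 of the 18. These values are descriptions, and a missing match says only that these letters are not in the window.

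Among the other genes of the pathway, 0 passed limma's adjusted test. Of 15 measured interferon ligand genes of 21 listed, 13 had signals below the median of all probe sets on every array, 14 had a positive difference (beside 56.6% of all genes) and 1 an unadjusted limma p under 0.05 with a positive difference (beside 3.79%). This was Ifna16, at 5.51, 5.47 and 5.78 in TKI258 tumors, against 5.26, 4.54 and 5.19 in water tumors (0.59 ± 0.21, limma adjusted p = 0.594). The other ligands of smallest p were Ifnk (0.21 ± 0.09) and Ifnl2 (0.35 ± 0.16). Many of the 15 are genes of the Ifna family, whose probe sets may also read a relative. Their counts are therefore not counts of independent observations. The median deviation of the 15 from the gene's mean was 0.043, 0.031 and 0.077 in TKI258 tumors, against -0.029, -0.101 and -0.041 in water tumors. Ifng, which encodes interferon gamma and was chosen after its values were seen, had low signals of 4.75, 4.64 and 5.55 in TKI258 tumors, against 4.71, 4.94 and 5.04 in water tumors, highest in replicate 3 of each group. Without TKI258 replicate 3, 13 of the 15 ligands had a positive difference (beside 58.1%). In that comparison 0 had an unadjusted limma p under 0.05, beside 3.44% of all genes higher and 3.38% lower. Of 13 genes of JAK-STAT signalling and feedback, 7 differed positively and 6 negatively, beside 56.6% and 43.4% of all genes. Of the 13, 0 had an unadjusted limma p under 0.05, beside 3.79% of all genes higher and 3.35% lower. The smallest p belonged to the phosphatase gene Ptpn2 (-0.19 ± 0.11), Stat3 (0.16 ± 0.11) and the kinase gene Jak1 (0.20 ± 0.14). Without TKI258 replicate 3, 7 of the 13 had a negative difference (beside 41.9% of all genes) and 1 an unadjusted limma p under 0.05, the phosphatase gene Ptpn6 (-0.28 ± 0.08), beside 3.38%. Of 14 genes of upstream sensing, 1 had an unadjusted limma p under 0.05 with a negative difference (beside 3.35% of all genes), the endosomal RNA receptor gene Tlr7, at 6.69, 6.79 and 6.68 in TKI258 tumors, against 7.20, 7.77 and 7.13 in water tumors (-0.65 ± 0.18, limma adjusted p = 0.569). Its TKI258 tumors were nearly equal and all below the water tumors. Thus Tlr7 did not share the high value of most induced genes in TKI258 replicate 3. Irf3 (0.14 ± 0.11) and Mavs (-0.11 ± 0.10) came next. Without TKI258 replicate 3, 10 of the 14 had a negative difference (beside 41.9% of all genes). In that comparison 3 had an unadjusted limma p under 0.05, all negative (beside 3.38%), and 5 had both TKI258 tumors below all water tumors (beside 10.6%). The 3 were Tlr7 (-0.63 ± 0.21), Irf8 (-0.50 ± 0.15) and Unc93b1 (-0.35 ± 0.14), and Irf8 and Unc93b1 were highest in TKI258 replicate 3. Ptpn6, Irf8 and Unc93b1, like the epithelial gene Cldn4, were chosen after their values were seen.

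A further 49 measured interferon-induced genes, of 56 listed and not members, were counted in the same way. With all 6 tumors 28 had a positive and 21 a negative difference, beside 56.6% and 43.4% of all genes. The median difference of the 49 was 0.04, beside 0.023 over all genes. Of the 49, 0 had an unadjusted limma p under 0.05, beside 3.79% of all genes higher and 3.35% lower. Ifi27l2a (0.58 ± 0.29), Slfn9 (-0.21 ± 0.11) and Ifi27 (0.22 ± 0.12) had the smallest p. TKI258 replicate 3 was the highest tumor for 40 of the 49, beside 26.3% of all genes. Without it 41 had a negative difference (median -0.18), beside 41.9% of all genes. In that comparison 12 had an unadjusted limma p under 0.05, all of them negative, beside 3.38%, and 17 had both TKI258 tumors below all water tumors, beside 10.6%. As with the members, these gaps follow in part from leaving out the tumor in which most of the 49 were highest.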

How the data were processed

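RNA of 6 whole tumors was measured, 1 Affymetrix array per tumor. The authors deposited log2 signals per probe set made with RMA, and the submitters' processing notes also name affy and limma; their versions and order and the build were not given in the sources used here. Of 34760 probe sets, 21640 name 1 gene in the platform annotation, 1321 several and 11799 none; a gene is represented by its single-gene probe set with the highest mean. Groups were compared in limma (R 4.3.3, limma 3.58.1), TKI258 minus water, without a filter, with Benjamini-Hochberg adjustment over all probe sets and a threshold of 0.05, for all 6 arrays and without the array with the highest Cd79b signal; the test was also tried on simulated data. Errors are SE of differences; the number of arrays limits precision. Members and lists were chosen with earlier results of these data known, so no list was tested and counts stand beside those over all genes. Members given in every tumor were, per role, the 3 of smallest p with all arrays and the 2 without that array, and all receptors. The 3 of smallest p of each other pathway list are given as differences, with Ifna16 and Tlr7 also in every tumor. Cd79b is shown because it picks the array left out, and Cxcl9, Iigp1 and Ifng were chosen after their values were seen. Alternatives were filters, normalization, centring, a replicate block, prior, weights, probe set averages, threshold, single arrays left out and Cd79b as a covariate. Promoter windows are from RefSeq (GRCm38.p6).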

Additional observations from a re-analysis of the deposited data

How the results depend on the processing

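No member passed limma's adjusted test in the alternatives counted, with all 6 arrays or without the array with the highest Cd79b signal. Runs without that array and a further one were not read for the adjusted test. Over all probe sets 2 passed with the filter on variability, which uses the group difference itself, 1 without both arrays with the highest Cd79b signal of their group, and 0 to 3 when single arrays were left out (3 without water replicate 1). The median difference of the members, 0.003 with all arrays, was 0.032 after quantile normalization, -0.015 with median centring, -0.182 with array weights, -0.141 with Cd79b as a covariate, -0.401 without both arrays with the highest Cd79b signal of their group, and -0.329 (without TKI258 replicate 3) to 0.169 (without TKI258 replicate 2) when single arrays were left out. Without TKI258 replicate 3 the count of members with a negative difference and an unadjusted limma p under 0.05, 12, was 7 with the filter on low values, which left 33 members, and 9 to 14 when a further array was left out, with the median between -0.448 and -0.176; this alternative was chosen after seeing the data. With a single TKI258 tumor the lone tumor is assumed to vary like the water tumors.

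Signs of the 26 members given in every tumor were read in the alternatives to the fit with all 6 arrays. There 10 kept their sign throughout and 16 changed it in at least 1, always with an adjusted p above the threshold. The cause was not tested. Differences changed sign to -0.23 for Irf1, -0.014 for Ifih1, -0.25 for Zbp1, -0.085 for Herc6, -0.061 for Dtx3l, -0.21 for Usp18, -0.52 for Gbp3, -0.004 for Ifi35, -0.16 for Rtp4 and -0.15 for Xaf1 with array weights; to -0.093 for Irf1, -0.087 for Zbp1, -0.14 for Usp18, -0.18 for Gbp3, -0.037 for Rtp4 and -0.068 for Xaf1 with Cd79b as a covariate; to -0.64 for Irf1, -0.19 for Ifih1, -0.55 for Zbp1, -0.16 for Parp9, -0.33 for Herc6, -0.22 for Dtx3l, -0.28 for Usp18, -1.29 for Gbp3, -0.16 for Ifi35, -0.43 for Rtp4 and -0.40 for Xaf1 without both arrays with the highest Cd79b signal of their group; and to -0.015 for Usp18 with median centring. When single arrays were left out, differences ran from -0.19 to 0.126 for Dhx58, -0.139 to 0.24 for Dtx3l, -0.002 to 0.102 for Eif2ak2, -0.783 to 0.719 for Gbp3, -0.217 to 0.41 for Herc6, -0.106 to 0.225 for Ifi35, -0.097 to 0.202 for Ifih1, -0.387 to 0.305 for Irf1, -0.398 to 0.055 for Irf9, -0.8 to 0.299 for Irgm1, -0.031 to 0.432 for Parp9, -0.325 to 0.439 for Rtp4, -0.461 to 0.106 for Trim30a, -0.334 to 0.28 for Usp18, -0.293 to 0.345 for Xaf1 and -0.414 to 0.45 for Zbp1.

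The replicate block left 0 members called and the median at 0.003. Deviations from the group mean correlated at -0.322, 0.184 and -0.008 between tumors numbered 1, 2 and 3. Deviations within a group of 3 sum to 0, so these values cannot decide whether the numbers pair the tumors. The labels name the tumors only as biological replicates. TKI258 replicate 3 correlated best with water replicate 1 (0.342).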
